A study of Mus musculus with 3 samples.

Results

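Peaks of HDAC3 and KLF4 were described at 10 genes that encode the proteases of skin cornification and shedding and their inhibitor: the kallikreins Klk5, Klk6, Klk7, Klk8 and Klk10, the kallikrein inhibitor gene Spink5, the membrane-bound serine protease genes St14 and Prss8, the caspase gene Casp14 and the retroviral-like protease gene Asprv1. A peak belonged to a gene when the nearest end of any protein-coding gene (GRCm38) was that gene's, or when the peak centre lay within 1 kb of either of its ends. By this rule the genes held 28 of the 57920 HDAC3 peaks and 44 of the 47140 KLF4 peaks on chromosomes. The mean over all protein-coding genes was 2.65 HDAC3 and 2.15 KLF4 peaks per gene, so the HDAC3 number was near that mean. Chromatin immunoprecipitation with sequencing (ChIP-seq) had been performed on whole epidermis from the backs of wild-type mice at E18.5, shortly before birth, giving 1 HDAC3 library, 1 KLF4 library and 1 input library without antibody. The deacetylase HDAC3 works in corepressor complexes, while KLF4 binds DNA through zinc fingers and is required to build the barrier. Depth was 56787485 tags for HDAC3 and 61432711 for KLF4, and peak heights are given as normalised tags, scaled by the authors to 10000000 tags per library. With 1 library per antibody no difference between libraries was tested, and all intervals are exact intervals at 95% that cover counting error only. In whole tissue, more occupied cells and more occupancy per cell cannot be told apart.

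Cornified cells of the epidermal surface are held together by modified desmosomes, the corneodesmosomes, and are shed as kallikreins digest them. KLK5 and KLK7 cut corneodesmosomal proteins in humans, and LEKTI, the product of Spink5, holds these kallikreins in check; loss of SPINK5 causes the scaling disorder Netherton syndrome in humans. Matriptase (St14) and prostasin (Prss8) act together in barrier formation in mice, and caspase-14 and the Asprv1 product SASPase take part in processing filaggrin in mouse epidermis.

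HDAC3 peaks belonged to 7 of the 10 genes and KLF4 peaks to 9, against 64.8% and 59.2% of all protein-coding genes that were nearest to such a peak. Both factors were found at 7 (49.8% of all genes), KLF4 without HDAC3 at 2, Klk6 and Prss8 (9.38%), and neither at Asprv1. Klk8 counts here only through the 1 kb window, as its peaks are nearest to Klk9. The all-gene shares count nearest ends alone. Without Klk8, the HDAC3 share of the 10 genes is below the 64.8% of all genes. At the gene ends, within 1 kb, HDAC3 was found at 4 genes (Klk7, Klk8, Klk10 and Casp14) and KLF4 at 6 (these and Klk6 and Prss8). The shares over all 21887 protein-coding genes were 18.9% for HDAC3 and 23.1% for KLF4. Both factors together were at 4 of the 10 genes and at 10.3% of all genes. Klk6, Klk7, Klk8 and Klk10 lie close together in 1 gene cluster, so they do not count as independent genes. The peak nearest to the limit on the inside was the KLF4 peak of Klk6, 973 bp from the gene's end. Those nearest on the outside were KLF4 peaks 1241 bp inside Spink5, 1386 bp inside St14 and 1943 bp before Asprv1, so that within 2 kb HDAC3 was at 4 genes (28.3% of all genes), KLF4 was at 9 (32.0%) and both at 4 (16.4%). Within 5 kb the counts were 7 for HDAC3 (46.2%), 9 for KLF4 (46.0%) and 7 for both (30.7%).

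The RefSeq promoter table (GRCm38.p6) held 8 entries for 7 of the genes: Klk5, Klk6, Klk7, Klk8, Klk10, Casp14 and Asprv1. Windows of 300 bp around the RefSeq start were touched by HDAC3 peaks at 2 entries (Klk7 and Casp14) and by KLF4 peaks at 3 (Klk7, Klk10 and Casp14), where 5.38% and 8.11% of all 32851 entries were. The 250 bases before the start are shown for these 3 genes, because peaks cover them, and for Asprv1, whose window no peak touched. Capitals mark CACCC, the core letters of KLF binding sites, on either strand (GGGTG on the strand shown).
Klk7: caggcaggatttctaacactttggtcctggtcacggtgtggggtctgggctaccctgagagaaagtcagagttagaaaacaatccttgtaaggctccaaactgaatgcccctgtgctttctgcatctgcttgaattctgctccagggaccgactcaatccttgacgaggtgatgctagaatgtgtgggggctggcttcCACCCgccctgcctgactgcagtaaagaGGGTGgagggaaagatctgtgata
Klk10: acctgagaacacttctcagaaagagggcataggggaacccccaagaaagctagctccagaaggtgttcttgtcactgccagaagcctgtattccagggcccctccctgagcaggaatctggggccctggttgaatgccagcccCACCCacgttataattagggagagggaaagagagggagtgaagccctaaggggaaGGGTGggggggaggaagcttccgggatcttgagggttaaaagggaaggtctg
Casp14: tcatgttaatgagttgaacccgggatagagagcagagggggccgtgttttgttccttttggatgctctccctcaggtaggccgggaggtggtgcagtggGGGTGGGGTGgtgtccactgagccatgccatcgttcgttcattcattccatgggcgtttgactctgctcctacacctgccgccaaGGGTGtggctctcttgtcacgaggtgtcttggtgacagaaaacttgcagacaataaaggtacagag
Asprv1: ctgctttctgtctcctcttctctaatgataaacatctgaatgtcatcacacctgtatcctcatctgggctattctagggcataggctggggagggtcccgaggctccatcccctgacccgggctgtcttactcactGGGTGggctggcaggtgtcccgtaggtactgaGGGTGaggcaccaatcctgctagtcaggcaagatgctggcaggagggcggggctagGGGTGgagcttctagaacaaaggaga

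The Klk7 stretch is chr7:43811044-43811293 on the plus strand. Its last 67 bases lay in the HDAC3 peak and its last 55 in the KLF4 peak, and both of its CACCC matches were in those 55 bases. The Klk10 stretch is chr7:43780804-43781053 on the plus strand. No base of it lay in an HDAC3 peak, while the whole 185 bp KLF4 peak lay within it and held both CACCC matches. The Casp14 stretch is chr10:78718294-78718543 on the minus strand, with 24 bases in the HDAC3 peak and 152 in the KLF4 peak; all 3 of its matches were inside the KLF4 peak, and 2 of them adjoin. The Asprv1 stretch, chr6:86627924-86628173 on the plus strand, also held 3 matches and no peak. CACCC was present in 6 of the 8 promoter entries, against 52.0% of all entries and 62.2% of the 2664 entries touched by a KLF4 peak. The GC box GGGCGG was present in 5 of 8, against 32.7% of all entries and 52.2% of those touched by a KLF4 peak, and overlapped a CACCC match in Klk7 alone. The AP-1 letters TGANTCA, the grainyhead letters AACCNGTT, the C/EBP letters TTGCNNAA and a pair of p53 family half-sites, each sought on both strands, were in none of the 8 windows; they were in 6.75%, 1.79%, 9.56% and 0.49% of all entries. A match is a description of the letters and not a binding site.

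The 5 kallikrein genes held 7 HDAC3 peaks with scores from 42 to 77 (median 61) and 14 KLF4 peaks with scores from 97 to 390 (median 218). Of the HDAC3 peaks 6 overlapped a KLF4 peak, against 25.8% of the whole HDAC3 list and 47.6% of its peaks at or above the median score. Of the KLF4 peaks 6 overlapped an HDAC3 peak, against 31.7% of the whole KLF4 list and 43.6% of its peaks at or above the median score, so this share was near the latter. The score is a tag number given by the authors' caller, and the medians of the whole lists were 22 for HDAC3 and 65 for KLF4. All 7 HDAC3 peaks and all 14 KLF4 peaks scored above their list's median. The HDAC3 peaks scored above 83.5 to 96.4% of their list and the KLF4 peaks above 70.8 to 99.2%. Peaks at or above the median score are therefore not matched to them in height. In the 110 kb from 20 kb below Klk10 to 20 kb above Klk5 there were 9 HDAC3 peaks and 18 KLF4 peaks, which is 8.17 and 16.3 peaks per 100 kb, against 2.9 and 2.36 per 100 kb of the effective genome in the whole lists. This window is dense in genes, and no other window of like gene density was compared.

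**Figure D1:**
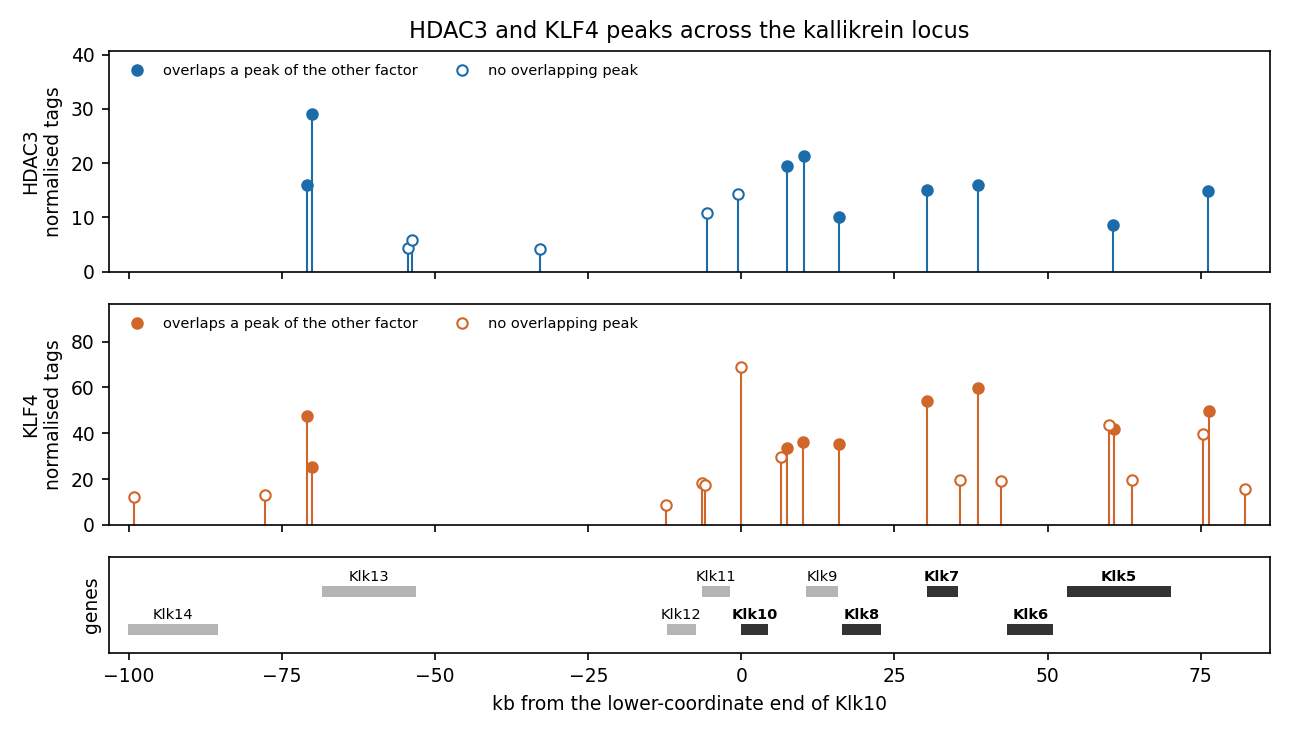
Each stem is a peak at its distance in kb from the lower-coordinate end of Klk10, with HDAC3 normalised tags in the upper panel and KLF4 normalised tags in the middle one; filled points overlap a peak of the other factor. Genes are drawn below with the described kallikreins in black, and the highest KLF4 peak, of 68.9 tags, stands at the start of Klk10 without an overlapping HDAC3 peak.

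Klk7 encodes the chymotrypsin-like kallikrein of the cornified layer, and it carried both factors at its start. The HDAC3 peak was centred 25 bp and the KLF4 peak 37 bp downstream of the RefSeq start, with 15.0 normalised tags for HDAC3 and 54.2 for KLF4. These values were 8.61-fold and 30.22-fold over input. A higher pair lay 3390 bp (HDAC3) and 3334 bp (KLF4) beyond the other end of the gene, with 16.0 HDAC3 tags and 59.7 KLF4 normalised tags. Its HDAC3 score of 74 exceeded 95.9% of the HDAC3 list and its KLF4 score of 346 exceeded 98.7% of the KLF4 list. Another KLF4 peak, of 19.5 normalised tags and 409 bp beyond the same end, had no overlapping HDAC3 peak.

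Klk5 encodes the trypsin-like kallikrein that activates other kallikreins in humans. It had no peak within 1 kb of its annotated ends, but the RefSeq start of its promoter entry lies 8112 bp inside the annotated span. An HDAC3 peak of 8.63 tags and a KLF4 peak of 41.8 normalised tags were centred 444 bp and 414 bp upstream of that start. A KLF4 peak of 43.5 tags, 751 bp from the HDAC3 peak of this pair, and one of 19.7 tags inside the gene had no HDAC3 partner. Beyond the upper-coordinate end, a pair of 14.8 HDAC3 tags and 49.6 KLF4 normalised tags stood 6029 bp and 6170 bp away. KLF4 peaks of 39.7 and 15.8 tags there were unaccompanied.

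Klk10, another member of the tissue kallikrein family, had an HDAC3 peak of 14.4 normalised tags centred 569 bp before its start. The highest KLF4 peak of the 10 genes lay 108 bp before the start, with a score of 390 (above 99.2% of the list), 68.9 normalised tags and 24.15-fold enrichment over input. The centres were 461 bp apart, so both factors counted at this gene end without sharing a site. The pair they did share stood 3017 bp (HDAC3, 19.5 tags) and 3049 bp (KLF4, 33.5 tags) beyond the other end. It lay almost midway between Klk10 and Klk9. Measured from the lower-coordinate end of Klk10, its centres were at 7.373 kb (HDAC3) and 7.405 kb (KLF4). Klk10 ends at 4.356 kb and Klk9 begins at 10.571 kb on this scale. The nearest-end rule gave the pair to Klk10, but the data do not assign it to either gene.

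Klk8 encodes neuropsin, a trypsin-like kallikrein of skin and brain. Its only peaks were 1 pair in the gap of 774 bp between Klk9 and Klk8, 540 bp (HDAC3, 10 normalised tags) and 614 bp (KLF4, 35.5 tags) before the annotated end of Klk8. Their centres were nearer to Klk9, at 234 bp and 160 bp, and the data do not assign the pair to either gene. Klk6, another trypsin-like kallikrein, had no HDAC3 peak, the nearest being 4661 bp away and belonging to Klk7. Its single KLF4 peak had 19.0 normalised tags and was 52.93-fold over an input of 1 tag.

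The calling rules bear on these HDAC3 values. The caller asked for 4-fold enrichment over both input and the 10 kb around a peak. HDAC3 peaks of the kallikreins were 4.46 to 9.05-fold over input (median 5.58) and 4.04 to 6.67-fold over the surroundings (median 4.98), and the HDAC3 peak at the Klk10 end (4.46-fold over input, 4.04-fold over the surroundings) stood just above both limits. Kallikrein KLF4 peaks were 13.57 to 69.21-fold over input (median 23.93) and 4.1 to 13.42-fold over the surroundings (median 8.4). Input at the kallikrein HDAC3 peaks was 5 to 9 tags (median 6), against a median of 2 over the HDAC3 list. Of the 7 HDAC3 peaks 2 were at least 8-fold over input, near the 41.7% of the whole HDAC3 list, while all 14 KLF4 peaks were, against 54.4% of the KLF4 list. Whether further HDAC3 sites of the locus missed the limits was not tested.

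**Figure D2:**
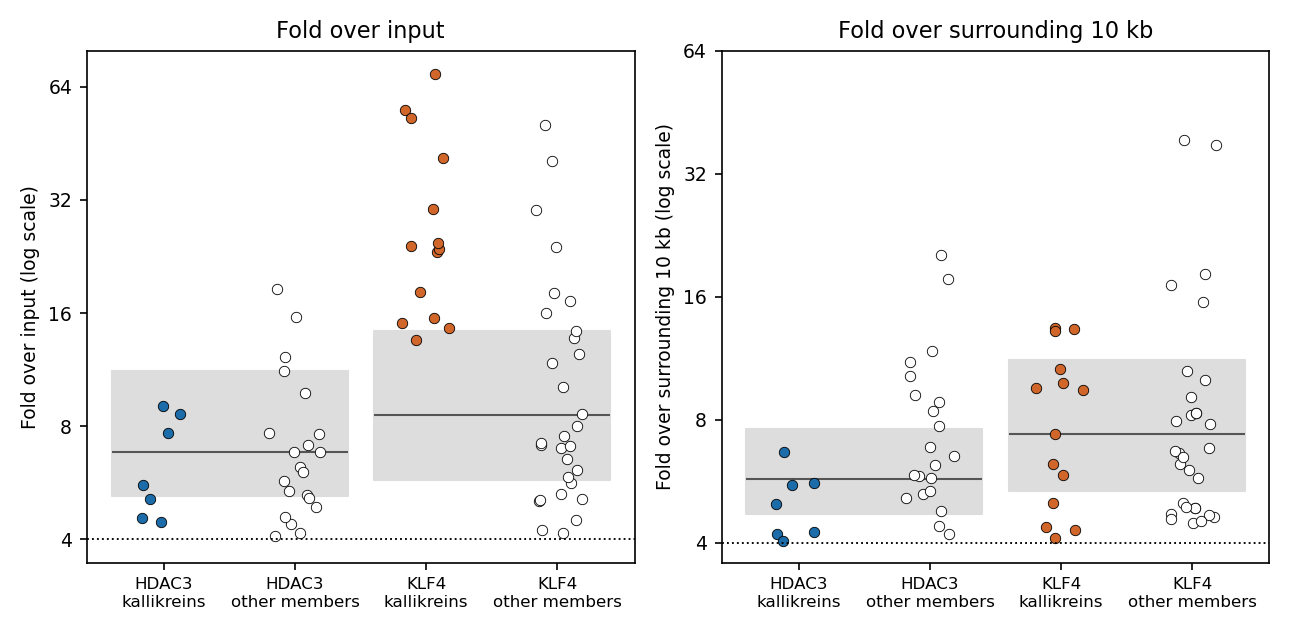
Fold over input (left) and over the surrounding 10 kb (right), both on log axes, with 1 point per peak for the kallikreins and for the other members; grey boxes give the quartiles of the whole list, the line in each its median, and the dotted line the required 4-fold. Kallikrein HDAC3 peaks lie between 4.46 and 9.05-fold over input, kallikrein KLF4 peaks between 13.57 and 69.21-fold.

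Spink5, the inhibitor gene, had more peaks than any other of the 10 genes, 13 for HDAC3 and 15 for KLF4, and none within 1 kb of its ends. Over all protein-coding genes, the median number of nearest peaks was 1 for each factor, and the most 73 for HDAC3 and 59 for KLF4. The nearest protein-coding gene on the lower-coordinate side, Gm94, is 167 kb away, so Spink5 is nearest to a long stretch of sequence. Inside the gene were 6 HDAC3 and 7 KLF4 peaks, and on the lower side 7 HDAC3 peaks at 26570 to 78902 bp and 8 KLF4 peaks at 12153 to 77963 bp. A total of 8 pairs overlapped, 4 of them inside the gene. These were 8 of the 13 HDAC3 and 8 of the 15 KLF4 peaks, against 25.8% and 31.7% of the whole lists. Among list peaks at or above the median score, 47.6% for HDAC3 and 43.6% for KLF4 overlapped. The medians were 30 for the HDAC3 scores and 69 for the KLF4 scores, against 22 and 65 in the whole lists.

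The Spink5 sites differed in the balance of tags, and at none was HDAC3 higher than KLF4 beyond counting error. The highest HDAC3 peak of the gene, 3710 bp inside it, had 19.0 normalised tags, with 14.8 for KLF4 at the same site. At 2266 bp inside, HDAC3 had 12.9 tags and KLF4 9.12. The pair 8447 bp inside had 6.52 HDAC3 tags and 11.6 KLF4 tags. The site 23766 bp inside also had more KLF4 than HDAC3 tags, 54.5 against 10.6. Its KLF4 score of 315 exceeded 98.1% of the list. Outside the gene, a pair 26570 bp (HDAC3) and 26568 bp (KLF4) below it was centred 2 bp apart and had 17.4 HDAC3 tags and 41.2 KLF4 tags. The pair near 38740 bp had 11.3 HDAC3 tags and 21.6 KLF4 tags. The pair near 77979 bp had 7.57 HDAC3 tags and 9.44 KLF4 tags, and that near 46640 bp had 3.87 HDAC3 tags and 4.07 KLF4 tags, with scores above 11.1% of the HDAC3 list and 7.08% of the KLF4 list. KLF4 alone was present 1241 bp inside the gene, with 17.3 normalised tags and 23.98-fold over input.

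**Figure D3:**
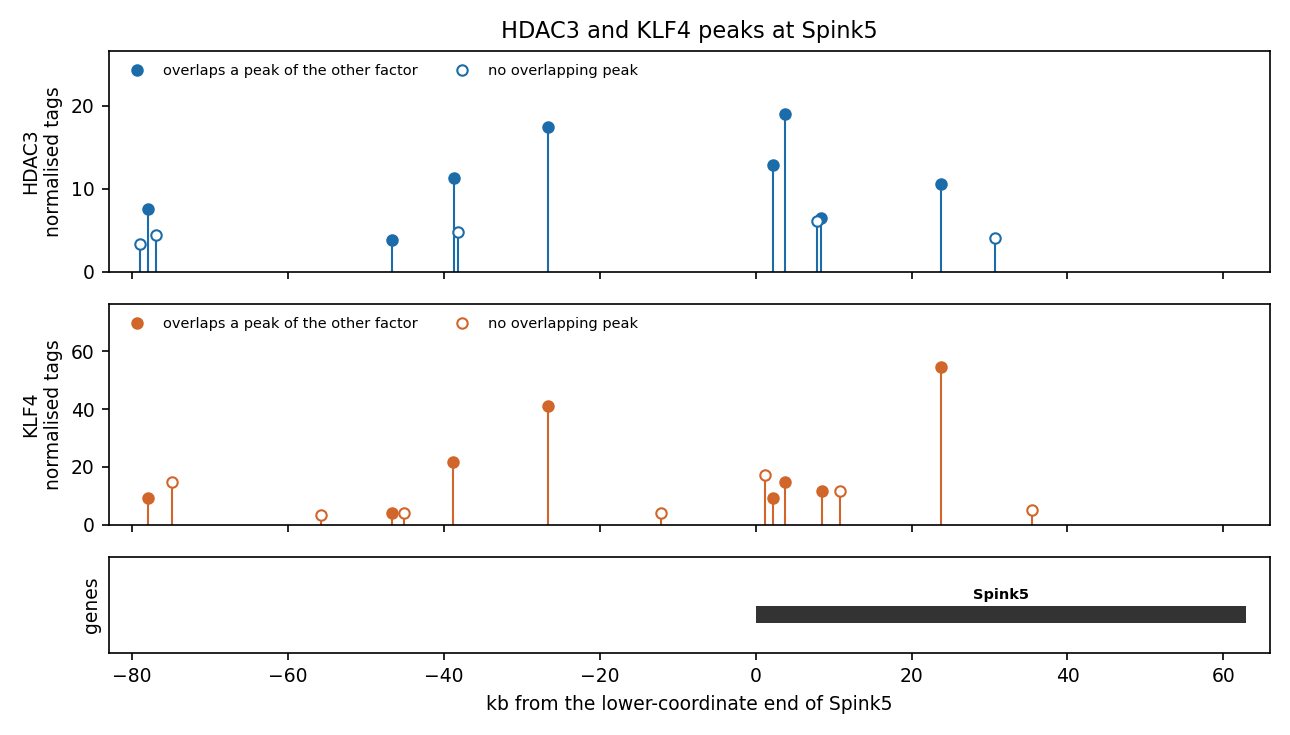
Each stem is a peak at its distance in kb from the lower-coordinate end of Spink5, with HDAC3 normalised tags above and KLF4 normalised tags below; filled points overlap a peak of the other factor. HDAC3 is highest near the lower-coordinate end, with 19.0 tags 3710 bp inside the gene, while KLF4 is highest 23811 bp inside it, with 54.5 tags.

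St14, the matriptase gene, had 3 HDAC3 peaks of 8.28, 9.86 and 8.28 normalised tags, all inside the gene and between 12764 and 20142 bp from an end. It had 5 KLF4 peaks of 7.49 to 20.8 tags, 4 of them inside. No HDAC3 peak of St14 overlapped a KLF4 peak: the nearest were 1573, 4198 and 1421 bp away. As 25.8% of all HDAC3 peaks and 31.7% of all KLF4 peaks overlap, 0 of 3 and 0 of 5 are not set apart from the lists. The HDAC3 peak nearest to Prss8, the prostasin gene, had 14.4 tags and was 2363 bp beyond its upper-coordinate end and 126 bp from Prss36. Prss8 had a KLF4 peak of 23.0 normalised tags, 7.09-fold over input, 319 bp outside its lower-coordinate end, where the gene overlaps the neighbouring acetyltransferase gene Kat8 by 121 bp. The peak was inside Kat8, 440 bp from its end. Neither St14, Prss8 nor Spink5 had an entry in the promoter table, and their start was therefore not told from their other end.

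Casp14, whose product is a caspase of terminal differentiation, carried both factors at its start. The HDAC3 peak was centred 68 bp downstream and the KLF4 peak 60 bp upstream of the RefSeq start, with 12.3 HDAC3 tags and 31.1 KLF4 normalised tags. A weaker KLF4 peak of 14.7 tags lay 538 bp from the same end, inside the gene. A further pair 8909 bp (HDAC3) and 8922 bp (KLF4) upstream had 16.7 HDAC3 tags and 16.6 KLF4 tags. On the other side, 20968 and 20261 bp from the gene, HDAC3 peaks of 8.80 and 5.99 tags overlapped KLF4 peaks of 22.5 and 7.65 tags. In all, 4 of the 5 HDAC3 peaks of Casp14 overlapped a KLF4 peak, and 4 of its 9 KLF4 peaks an HDAC3 peak. In the whole lists 25.8% of HDAC3 peaks and 31.7% of KLF4 peaks overlapped. Among peaks at or above the median score the shares were 47.6% and 43.6%, and the KLF4 share of Casp14 was near the latter.

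**Figure D4:**
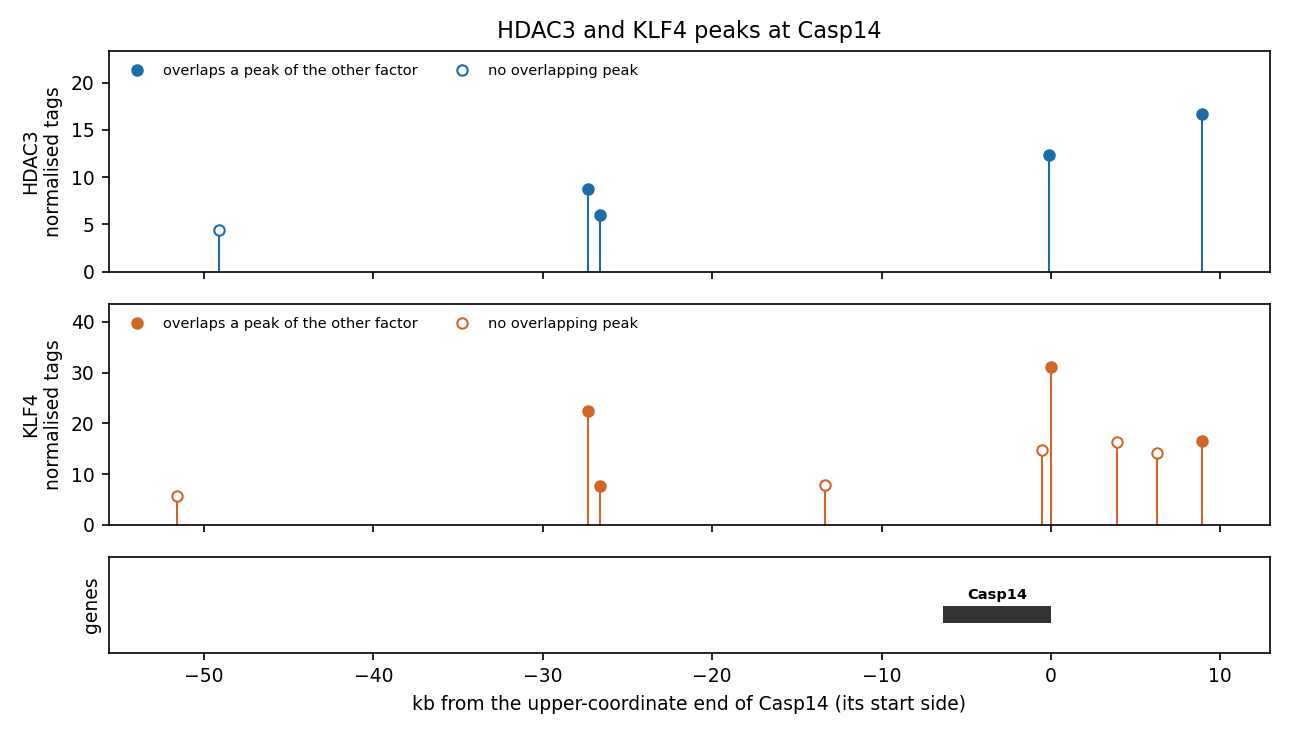
Each stem is a peak at its distance in kb from the upper-coordinate end of Casp14, where its RefSeq start lies, so that upstream is to the right; HDAC3 normalised tags are above, KLF4 normalised tags below, and filled points overlap a peak of the other factor. HDAC3 is highest 8909 bp upstream, with 16.7 tags, and KLF4 at the start, with 31.1 tags.

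Asprv1 received no peak by the rule. The nearest HDAC3 peak was 10612 bp beyond its upper-coordinate end, with 7.75 normalised tags and 21.53-fold over input, and was nearest to Mxd1. A KLF4 peak of score 331, with 56.3 normalised tags and 14.35-fold over input, was centred 1943 bp before its RefSeq start (chromosome 6, 86626139 to 86626323). It lay inside the predicted protein-coding gene Gm46963, which ends 316 bp before Asprv1, and was 1627 bp from that gene's end, so the nearest-end rule gave it to Gm46963. Its tags exceeded those of every KLF4 peak of the other genes except 2, at Klk7 and Klk10.

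Of the 28 HDAC3 peaks, 18 (64.3%, 44.1 to 81.4) shared at least 1 bp with a KLF4 peak, against 25.8% of the whole HDAC3 list. Overlap goes with peak height in these lists: 24 of the 28 peaks were at or above the list's median score, and 47.6% of all such HDAC3 peaks overlapped a KLF4 peak. The interval of 44.1 to 81.4 includes that value. The median score of the 28 peaks, 41, was above the third quartile of the list, 32. List peaks at or above the median score are therefore not matched to them in height. Of the 44 KLF4 peaks, 18 (40.9%, 26.3 to 56.8) overlapped an HDAC3 peak, against 31.7% of the list and 43.6% of its peaks at or above the median score. This KLF4 share depended on the filter: with both lists limited to peaks at least 8-fold over input it was 14.3% at these genes. The whole KLF4 list then had 20.4%. That filter left 7 of the 28 HDAC3 peaks, so the lower share does not show that strong KLF4 peaks here lack a called HDAC3 peak. Peaks of 1 gene are not independent, and 8 of the 18 pairs were at Spink5. The paired centres were 2 to 141 bp apart (median 29), where all 14962 pairs had a median of 31 bp.

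The balance of the factors in shared peaks was given by normalised tags. The authors' caller put 3.95% of HDAC3 tags and 6.81% of KLF4 tags in peaks, so a ratio of 1 is not equal occupancy. HDAC3 over KLF4 was 0.206 to 0.582 in the 6 kallikrein pairs (median 0.279) and 0.194 to 1.41 in the 12 pairs of Spink5 and Casp14 (median 0.673). The median of all pairs was 0.652 (quartiles 0.441 and 0.917). KLF4 tags are the denominator of the ratio. The KLF4 peaks of the kallikrein pairs had 33.5 to 59.7 normalised tags, against a median of 10.4 in the whole KLF4 list. Pairs of like KLF4 height were not compared, so a low ratio is not shown to be particular to the kallikreins. The highest kallikrein ratio was that of the Klk10 pair, 0.582 (0.459 to 0.738), an interval that includes the median of all pairs; 41.7% of all pairs had a ratio no higher than this one. Within Spink5, the ratio was 0.194 (0.145 to 0.256) at 23766 bp inside, but 1.28 (0.962 to 1.72) at 3710 bp and 1.41 (0.982 to 2.03) at 2266 bp inside. The interval of the first did not overlap those of the other 2. These are the lowest and the 2 highest of the 8 Spink5 ratios, and the intervals do not allow for a choice of extremes. The Casp14 pair 8909 bp upstream had a ratio of 1.01 (0.754 to 1.35), against 0.395 (0.297 to 0.524) at its start. HDAC3 tags exceeded KLF4 tags in 3 of the 18 pairs, near the 19.4% of all pairs.

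**Figure D5:**
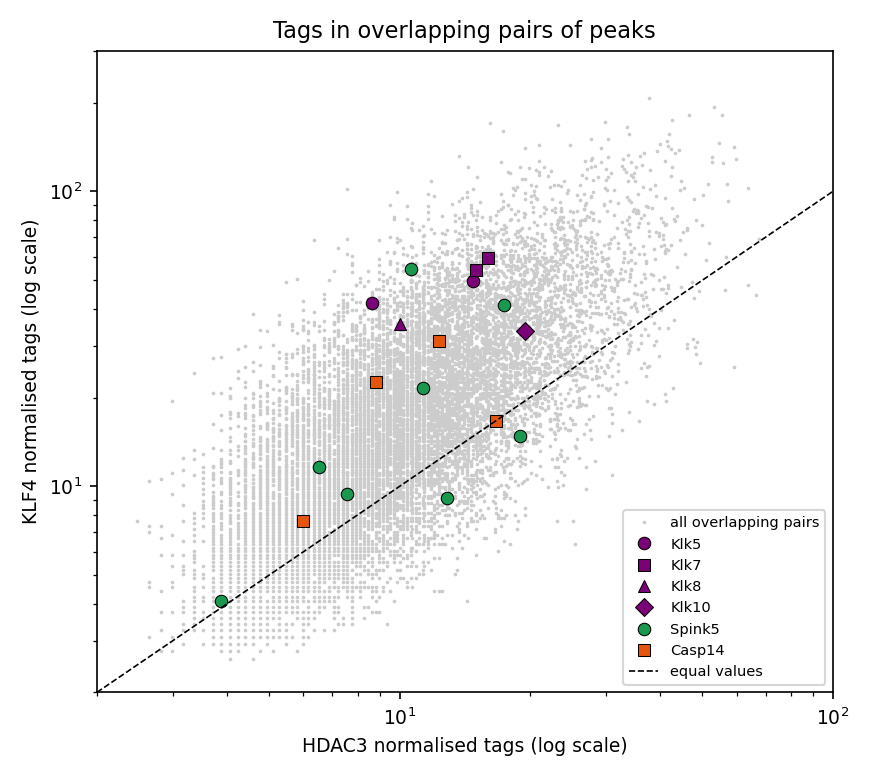
Each point is a pair of overlapping peaks, with HDAC3 normalised tags on the horizontal and KLF4 normalised tags on the vertical log axis; grey points are all 14962 pairs, coloured points the 18 pairs of the described genes, and the dashed line marks equal values. The kallikrein pairs lie above the line, at ratios of 0.206 to 0.582, and 3 pairs, 2 of Spink5 and 1 of Casp14, lie below it.

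Other genes of the pathway were taken from 4 lists. Of 8 further kallikreins of the locus, 4 had an HDAC3 and 4 a KLF4 gene-end peak, and Klk9 (score 87 for HDAC3, 210 for KLF4) and Klk11 (41 and 113) had both. Of 13 other proteases, 3 had HDAC3 and 4 had KLF4. The 3 with both were the transmembrane serine protease genes Tmprss4 (94 for HDAC3, 302 for KLF4) and Tmprss13 (82 and 162) and the bleomycin hydrolase gene Blmh (35 and 47), whose product degrades filaggrin peptides. The cathepsin genes Ctsd and Ctsl had no gene-end peak of either factor. Of 9 inhibitor genes, 3 had HDAC3 and 4 had KLF4. Both were at Spint2 (86 for HDAC3, 284 for KLF4) and Spint1 (33 and 83), whose products inhibit matriptase, and at Serpina12 (61 and 129), whose product vaspin inhibits KLK7 in humans. Substrates and receptors of these proteases had HDAC3 at 7 and KLF4 at 9 of 10 genes, 7 with both. These included Cdsn, the corneodesmosin gene (72 and 233), the desmocollin gene Dsc1 (72 and 285), Flg2 (57 and 119), Hrnr (45 and 98), Flg (35 and 85) and Tmem79 (130 and 717), which encodes a membrane protein of lamellar granules and is not known as a protease substrate. F2rl1, the gene of the protease-activated receptor of keratinocytes, was the only gene of this list with neither. In this list Flg, Flg2, Hrnr and Tmem79 are on chromosome 3, and Dsg1a, Dsg1b and Dsc1 on chromosome 18. Its genes may therefore not count as independent. Over all protein-coding genes the shares were 18.9% for HDAC3, 23.1% for KLF4 and 10.3% for both.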

How the data were processed

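ChIP-seq libraries of HDAC3 (Abcam ab7030) and KLF4 (R&D AF3158) and an input were assigned by the antibody labels, 1 library each. The submitters' processing notes name bcl2fastq, STAR, HOMER and GRCm38.p5, without versions. Peaks of 185 bp were called in each library against the same input, per the file headers, with at least 4-fold over input and over the 10 kb around, Poisson p-values of 1e-04 and a false discovery rate of 0.001, and none was called on pooled libraries. The deposited tag signal is scaled by the authors to 10000000 tags per library. The deposited score is the caller's tag number and ranks peaks within 1 list. The fold over input and over the surroundings are the authors' ratios, and an input of 0 is written as 0.5. The deposited p-values and the deposited focus ratio, a fraction, were not used.

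Peaks on chromosomes were placed on the RefSeq gene table of GRCm38.p6, which has the same primary coordinates and 21887 protein-coding genes with no strand; strand and start came from the RefSeq promoter table, and sequences are credited to RefSeq. Centres up to 184 bp apart counted as overlap. Tags behind a ratio were recomputed from values with 3 digits, and the interval of a ratio is the exact binomial interval of the HDAC3 share of both. Position matching was tested on simulated data. All 10 genes are named, with their highest peaks and their overlapping pairs; in the related lists, genes with both factors at an end, at most 6 per list by HDAC3 score, are named, and others singled out (Ctsd, Ctsl and F2rl1) were chosen after their values were seen. The genes and lists were chosen with earlier results of these data known. Peak lists hold no expression values, so the tissue was not checked against markers. With 2 lists, no likeness of pattern to other genes was computed. Python 3.11.15, numpy 2.4.6, pandas 2.3.3 and scipy 1.17.1 were used.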

Additional observations from a re-analysis of the deposited data

How the results depend on the processing

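Of 38 alternative values, 29 stayed within 1.5 times the reported count or within the exact interval of the reported share or median. With peaks at least 8-fold over input, the genes held 7 of their 28 HDAC3 peaks (41.7% of the list passed) and 28 of their 44 KLF4 peaks (63.6%, against 54.4% of the list). HDAC3 was then at the end of 1 gene, Klk7 (6.76% of all genes), both factors were at the end of 1 (2.86%), and the median KLF4 score was 135.5 (85 in the list). With both lists filtered in this way, the share of KLF4 peaks that overlapped an HDAC3 peak was 14.3%, below the 20.4% of the list. This filter removed most of the HDAC3 peaks of the genes. Without it the share was 40.9%, above the list's 31.7%. With peaks at or above the median score of both lists it was 43.8%, against 42.9%. The HDAC3 share was above that of its list in both filters, at 57.1% against 21.7% and 58.3% against 34.9%. These shares rest on 7 and 24 HDAC3 peaks, which are not independent, so the first is imprecise. With gene ends of 5 kb, HDAC3 was at 7 genes (46.2% of all) and both factors were at 7 (30.7%). Counting only peaks inside a gene or within 5 kb of it left 17 HDAC3 peaks. The list and all-gene values under the alternatives were added after seeing the data. No paired analysis was possible because each antibody had 1 library, and no replicate could be left out. An input of a few tags per peak makes single folds over input imprecise.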
